A study of Mus musculus with 51 samples.

Results

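Muscle atrophy ubiquitin ligases and their regulators were followed through gene expression data of 6 tissues from mice studied 9 weeks after gastric bypass. The set holds 8 genes, taken by symbol from 14606 genes listed for any tissue: the ligase genes Fbxo32, Trim63 and Fbxo30, the regulators Foxo3, Klf15, Mstn and Gadd45a, and Nos1, which encodes neuronal nitric oxide synthase. All 8 were listed in muscle. White adipose tissue (WAT) listed 6 of them, liver 5 and duodenum, jejunum and ileum 6 each, so that 37 of 48 pairs of gene and table could be read. A gene missing from a table was below the authors' filter there.

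The mice were male C57Bl6, made obese by diet, and had either Roux-en-Y gastric bypass (RYGB), in which food enters the jejunum from a small stomach pouch, or a sham operation. Both groups received an elemental liquid diet after surgery and later high-fat food again, the sham mice ate restricted rations that kept their weight at that of the RYGB mice, and all were fasted overnight before tissue collection at 9 weeks. The operation and the food restriction of the sham mice therefore cannot be told apart. RYGB and sham libraries numbered 4 and 4 for gastrocnemius muscle, a calf muscle of mostly fast fibres, 4 and 5 for WAT, 5 and 4 for liver, 4 and 5 each for duodenum and jejunum, and 2 and 5 for ileum, 51 in all from 10 animal codes; the gut samples were scraped villi. The source field of the muscle RYGB libraries reads sham, whereas their titles and surgery field read RYGB, which was followed.

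Muscle fibres lose protein mainly through the ubiquitin-proteasome system, in which a ligase marks a protein with ubiquitin and the proteasome degrades it. Fbxo32 (atrogin-1) and Trim63 (MuRF1) are the ligase genes best known for rising in wasting muscle, after fasting, disuse, denervation and glucocorticoids alike. FOXO transcription factors, which insulin and IGF1 signalling keeps out of the nucleus, and the glucocorticoid receptor switch them on, and myostatin, a secreted brake on muscle growth, acts upstream through SMAD signalling. Fbxo32 lies on chromosome 15 from 58175879 to 58214932, Trim63 on chromosome 4 from 134315120 to 134329629, Fbxo30 and Foxo3 on chromosome 10 from 11281330 to 11298052 and from 42181841 to 42276755. Klf15 and Gadd45a lie on chromosome 6 from 90462576 to 90475238 and from 67035096 to 67037457, Mstn on chromosome 1 from 53061640 to 53068079, and Nos1 on chromosome 5 from 117781032 to 117958840 (GRCm38, all protein-coding).

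Values are CPM (read counts scaled to a common library total) as deposited, with no read totals; the listed genes of a library summed to between 978879 and 993560.1 CPM, and the depth behind a value is unknown. Fold changes are log2(CPM + 1) in RYGB minus sham, which understates the change of genes at low CPM, and p-values come from limma, adjusted after Benjamini and Hochberg over every gene in that tissue's table. A gene is said to have risen or fallen where its adjusted p is below 0.05. Muscle identity was plain, with 14 of 14 fibre markers listed and 111800.0 to 221200.0 CPM in their sum over the RYGB libraries and 111200.0 to 178700.0 CPM over the sham libraries. The muscle library RYGB 2 stood apart. It correlated with the other RYGB libraries at 0.917 to 0.944 across genes. The highest correlation of each of these with a library of its group was 0.963 to 0.967. The 4 sham libraries correlated with each other more closely still for most pairs, at 0.964 to 0.989. It held the highest value of the 8 libraries in 23.6% of all 11594 genes and the lowest in 20.3%. The muscle result of each member is therefore given with it and without it. Most other genes and lists are given in 1 of these settings only.

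**Figure D1:**
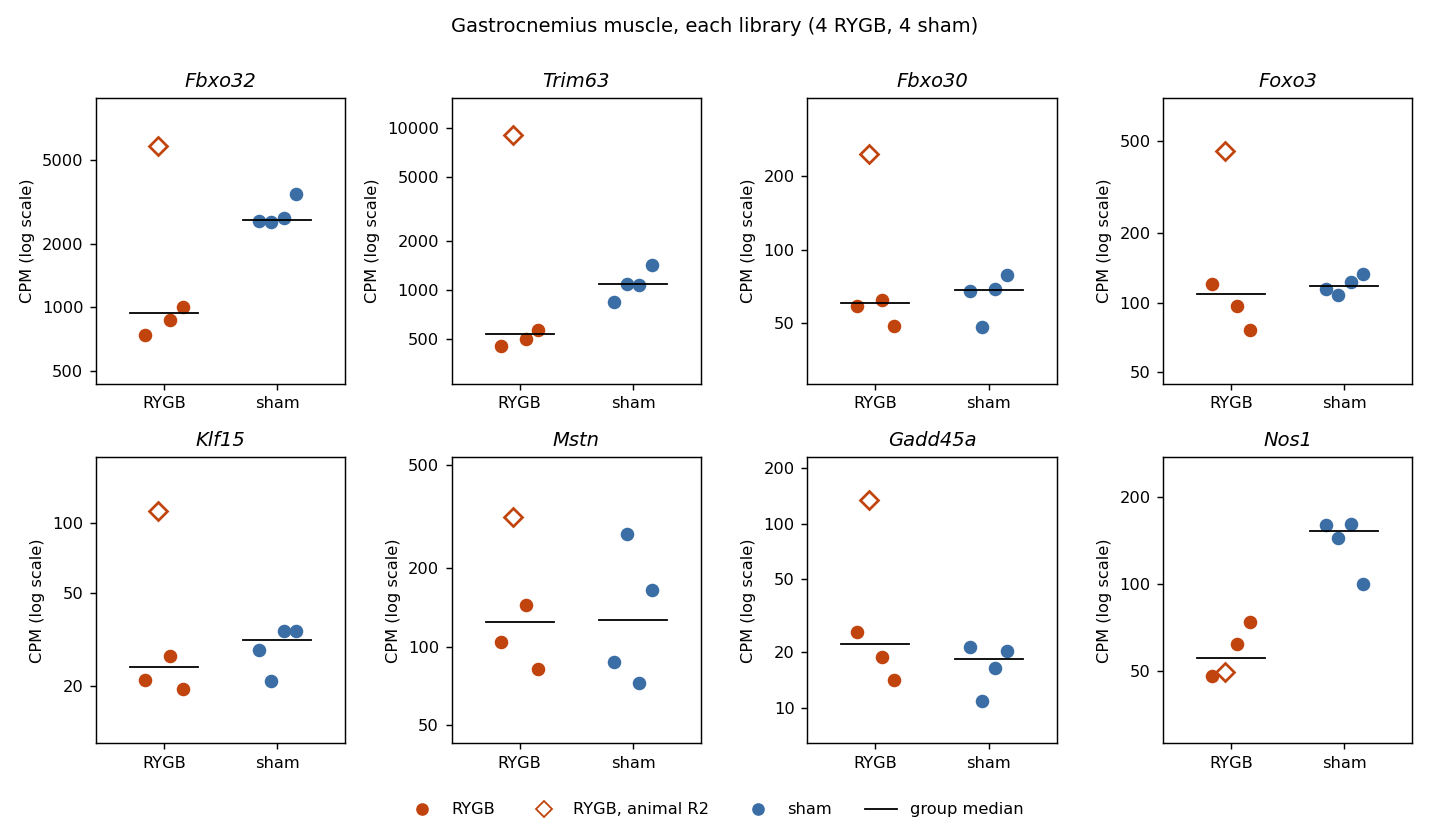
CPM of the 8 genes in each gastrocnemius library on a log axis, RYGB at the left and sham at the right of each panel, with bars at the group medians. The open diamond is library RYGB 2, which is the highest of 8 in every panel but that of Nos1; the other 3 RYGB libraries lie below all sham libraries for Fbxo32, Trim63 and Nos1.

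Fbxo32 and Trim63 were low in 3 of the 4 RYGB muscles and very high in the remaining one. With all 8 libraries, limma called 0 of the 8 members in muscle, as it did 0% of all 11594 genes (812 were at an unadjusted p below 0.05, and the smallest adjusted p was 0.0566). Without RYGB 2 it called Fbxo32, among 24 genes or 0.207% of all. The 3 remaining RYGB libraries lay below all 4 sham libraries for Fbxo32, Trim63 and Nos1, a pattern held by 7.69% of all genes without RYGB 2; with all libraries Nos1 alone of the 8 showed it, beside 1.96% of all genes. The samples are bulk tissue, where fewer cells of a type and less RNA per cell cannot be told apart.

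Fbxo32 encodes atrogin-1, the subunit that brings substrates to an SCF ubiquitin ligase. Its 4 RYGB libraries held 740.8, 5779.7, 873.1 and 1002.4 CPM, against 2552.1, 2550.2, 2636.7 and 3458.2 CPM in the sham libraries. RYGB 1, 3 and 4 were thus below every sham library and RYGB 2 above every one. The log2 fold change was −0.996 (95% interval −2.25 to 0.26, adjusted p = 0.761) over all libraries. Without RYGB 2 Fbxo32 averaged 872 ± 131 CPM in RYGB and 2799 ± 441 CPM in sham mice (SD, n = 3 and 4), a 3.20-fold lower level (log2 fold change −1.68, interval −2.16 to −1.20, adjusted p = 0.0422). That call was fragile in a group of 3: the fold change stayed between −1.79 and −1.57 when a second library was left out, but the adjusted p became 0.158 on leaving out RYGB 1 as well and 0.0894 on leaving out RYGB 3. Leaving out sham 1, sham 3 or sham 4 instead gave 0.0868, 0.0979 and 0.122.

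Trim63 encodes MuRF1, a RING-type ligase known for marking thick-filament proteins of the sarcomere. The RYGB libraries held 450.6, 9038.3, 499.2 and 567.3 CPM, against 842.8, 1092.7, 1077.3 and 1427.9 CPM in sham. RYGB 2 stood 6.33-fold above the highest other library, against 1.67-fold for Fbxo32, and the other 3 RYGB libraries lay below all sham libraries, by less than for Fbxo32. The fold change over all libraries was −0.07 (interval −1.98 to 1.84, adjusted p = 0.996), and without RYGB 2 it was −1.11 (−1.61 to −0.62, adjusted p = 0.0857), or 2.17-fold lower at 506 ± 58.6 CPM in RYGB and 1110.0 ± 240.7 CPM in sham mice (SD, n = 3 and 4). Scaled to exon length, Trim63 and Fbxo32 were of like abundance without RYGB 2, with means over the 7 libraries of 299.5 and 282.9 CPM per kilobase. In RYGB 2 Trim63 was at 3180 and Fbxo32 at 828.5 CPM per kilobase.

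The promoter of Trim63 is shown because FOXO factors and the glucocorticoid receptor are known to act on it together. The 250 bases before its start (RefSeq, GRCm38.p6, chr4:134314870-134315119, plus strand) carry AGAACA, a core word read by the glucocorticoid receptor, directly beside a FOXO site, GTAAACA, both read on the opposite strand and marked by capitals.
Trim63 promoter: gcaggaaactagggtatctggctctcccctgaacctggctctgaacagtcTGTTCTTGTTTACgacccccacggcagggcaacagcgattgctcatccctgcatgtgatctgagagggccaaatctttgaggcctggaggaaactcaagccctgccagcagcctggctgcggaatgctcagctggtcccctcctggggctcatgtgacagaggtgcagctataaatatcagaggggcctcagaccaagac
The capitals run from 200 to 188 bases before the start. Searched on both strands in 32851 RefSeq windows of the same length, GTAAACA was present in 3.17%, AGAACA in 16.1%, both anywhere in 0.691%, and GTAAACA directly followed by AGAACA, a search added after the Trim63 window had been read, in 1 window, that of Trim63 itself. Neither word occurs in the windows of Fbxo30, Foxo3, Klf15, Mstn, Gadd45a and Nos1. The Nos1 window, from 117866589 to 117866838, precedes a start inside the gene span given above, so the 5′ end of that span was not searched. The Fbxo30 window, from 11281337 to 11281586, also lies inside its gene span, and those of Foxo3 and Gadd45a reach partly into theirs. E-boxes (CANNTG) were in 66.2% of all windows and numbered 3 in that of Trim63, 4 in Mstn, 2 in Klf15 and 1 each in Gadd45a and Nos1. The word CACCC, read by KLF factors, was in 52.0% of all windows and occurred in those of Klf15 and Gadd45a. No window for Fbxo32 was used. A match is a description of the letters, not of binding.

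Fbxo30 encodes MUSA1, a further F-box ligase subunit known to rise in denervated muscle when BMP signalling is low. It stood at 59.1, 246.5, 62.4 and 48.9 CPM in RYGB, against 67.6, 48.1, 69.1 and 78.7 CPM in sham muscles. RYGB 2 was 3.13-fold above the highest other library, and the other 3 RYGB libraries lay within the sham range. The fold change was 0.33 (interval −0.66 to 1.32, adjusted p = 0.919), and −0.20 (−0.62 to 0.23, adjusted p = 0.684) without RYGB 2, so Fbxo30 showed no detectable difference beside the low Fbxo32 and Trim63 of the same 3 muscles.

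Foxo3, the transcription factor known to switch on Fbxo32 and autophagy genes in muscle, was at 121.2, 453.6, 97.1 and 76 CPM in RYGB and 114.7, 107.8, 122.9 and 132.8 CPM in sham libraries. RYGB 2 was again the highest, 3.42-fold above the next, and RYGB 3 and 4 lay below all sham libraries. The fold change was 0.25 (adjusted p = 0.953), and −0.30 without RYGB 2 (interval −0.72 to 0.11, adjusted p = 0.494). Klf15, a zinc-finger factor that glucocorticoids induce and that drives amino acid catabolism, held 21.3, 112, 27 and 19.4 CPM in RYGB and 28.5, 21, 34.6 and 34.3 CPM in sham libraries. Its RYGB 2 value was 3.24-fold above the next, and the other groups overlapped (fold change 0.20, adjusted p = 0.966; −0.36, adjusted p = 0.467 without RYGB 2).

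Gadd45a encodes a nuclear stress protein that denervation and fasting induce in muscle. It read 25.7, 134.9, 18.9 and 14.1 CPM in RYGB and 21.4, 10.9, 16.5 and 20.3 CPM in sham libraries, with RYGB 2 at 5.25 times the next. Its fold change was 0.86 (interval −0.48 to 2.21, adjusted p = 0.799), and 0.17 (−0.41 to 0.76, adjusted p = 0.814) without RYGB 2. Mstn, which encodes myostatin, was the most variable member within the sham group. It held 104.3, 314.5, 144.5 and 82.4 CPM in RYGB and 87.2, 270.9, 72.4 and 165.8 CPM in sham libraries, and RYGB 2 exceeded sham 2 by 1.16 times only. The fold change was 0.11 (interval −0.97 to 1.20, adjusted p = 0.987), and −0.27 (−1.20 to 0.66, adjusted p = 0.817) without RYGB 2.

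Nos1 encodes neuronal nitric oxide synthase, which sits at the muscle membrane bound to the dystrophin complex and leaves it in disuse. Unlike the other 7 members, it was low in all 4 RYGB libraries, at 48, 49.7, 61.9 and 74.2 CPM, against 159.8, 144, 160.9 and 100.4 CPM in sham libraries. RYGB 2 was the second lowest of 8, and no RYGB value reached the lowest sham value. RYGB muscles averaged 58.5 ± 12.2 CPM and sham muscles 141.3 ± 28.3 CPM (SD, n = 4 each), 2.39-fold lower after RYGB (fold change −1.26, interval −1.73 to −0.78). Over all 11594 genes this did not pass (unadjusted p = 0.000109, adjusted p = 0.126; adjusted p = 0.085 without RYGB 2), and the adjusted p stayed between 0.0629 and 0.455 over 12 alternative settings, with fold changes from −1.41 to −1.17.

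**Figure D2:**
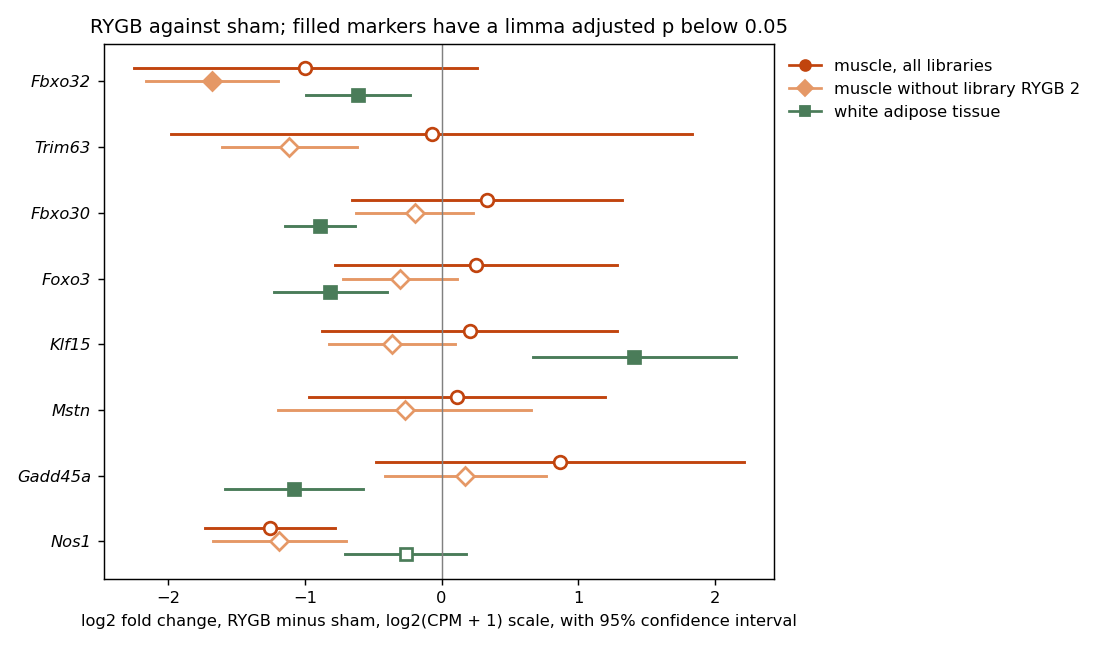
Log2 fold changes of RYGB against sham with 95% confidence intervals, for muscle with all libraries, muscle without RYGB 2, and WAT; filled markers have an adjusted p below 0.05. Leaving out RYGB 2 narrows the muscle intervals of every member but Nos1 and moves Trim63 from −0.07 to −1.11, and in WAT 5 members lie below 0, 4 of them called, and Klf15 above.

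Genes near these members in the pathway were read from lists chosen with earlier results of these data known. The myostatin and activin list also holds genes of TGF-beta and BMP signalling. With all muscle libraries no gene of any list passed the test. Without RYGB 2, of 17 glucocorticoid response genes 1 fell, the clock gene Per1, which glucocorticoids induce. It averaged 17.8 ± 5.36 CPM in RYGB and 51.6 ± 9.51 CPM in sham mice (fold change −1.50, adjusted p = 0.0464). RYGB 2 itself held 65.0 CPM of Per1, above the 13.2 to 63.8 CPM of the other 7 libraries. None of 31 other ubiquitin ligases and ligase partners, 22 FOXO factors and targets, 28 autophagy genes, 35 proteasome genes, 17 ubiquitin and conjugating enzyme genes, 24 genes of amino acid catabolism, 39 of the myostatin and activin pathway, 23 of denervation and the neuromuscular junction and 22 of the dystrophin complex and other NOS1 partners passed. The medians of these lists without RYGB 2 were −0.09 for the other ligases, −0.27 for FOXO genes, −0.21 for autophagy, −0.34 for the proteasome, −0.010 for the conjugating enzymes, 0.0088 for glucocorticoid response genes, −0.0086 for amino acid catabolism, −0.04 for the myostatin and activin pathway and 0.17 for NOS1 partners, beside 1.2e-05 for all genes. The denervation and neuromuscular junction list lay on the other side, with a median of 0.44 (0.41 with all libraries). Its summed levels did not overlap, at 415.8 to 1004.0 CPM in RYGB and 292.4 to 387.6 CPM in sham muscles. At an unadjusted p below 0.05 in limma were 8 of its 23 genes, beside 1613 of all 11594 genes (5 and 812 with all libraries). Other lists held such genes too. Without RYGB 2 they were 12 of 27 for insulin and IGF1 signalling and 11 of 35 for the proteasome. With all libraries they were 8 of 22 fasting and PPAR responsive genes. Of the denervation list, Chrna1, a subunit of the acetylcholine receptor, averaged 35.6 ± 15.02 CPM in RYGB and 20.03 ± 3.76 CPM in sham muscles (SD, n = 4 each, fold change 0.72, adjusted p = 0.663). Of the other lists, 27 genes of insulin and IGF1 signalling had a median of −0.09 without RYGB 2, 27 fibre type genes 0.42, 22 fasting and PPAR responsive genes −0.49, 13 inflammatory genes −0.01, 12 p53 targets −0.11 and 18 clock genes −0.06, and Per1 alone of these passed.

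Some genes of these lists differed by more than others without passing the test. Fbxo21, an F-box ligase gene that is no member, averaged 25.8 ± 4.17 CPM in RYGB and 47.05 ± 2.17 CPM in sham muscles (SD, n = 4 each; fold change −0.85, adjusted p = 0.215; 0.0857 without RYGB 2), with RYGB 2 at 25.6 CPM among the rest. Fbxl22, another F-box gene, lay the other way at low levels, with 6.57 ± 2.89 CPM in RYGB and 1.65 ± 0.526 CPM in sham muscles without RYGB 2 (1.46, adjusted p = 0.0857), and RYGB 2 itself was at 1.1 CPM (1.02, adjusted p = 0.682 with it). The autophagy receptor gene Sqstm1 (p62) stood at 252 ± 77.0 CPM in the 3 other RYGB muscles and 529.7 ± 22.5 CPM in sham muscles (−1.11, adjusted p = 0.0857 without RYGB 2; −0.86, adjusted p = 0.595 with it). Of the proteasome genes, Psmc2 had a fold change of −0.54 and Psma2 of −0.53 without RYGB 2 (adjusted p = 0.2 and 0.21). Among Nos1's partners, Dmd, dystrophin, averaged 428 ± 134 CPM in RYGB and 418 ± 75.3 CPM in sham muscles (−0.01, adjusted p = 0.998).

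The genes whose profile over the 8 muscle libraries was most like that of Fbxo32 were Vprbp, Gcc2, Clip1, Harbi1 and Slc17a5, with Pearson correlations of 0.98 to 0.991 on the log2 scale and 0.97 to 0.991 over the 7 libraries without RYGB 2. Clip1, which encodes a microtubule plus-end protein, reached 1816.4 CPM in RYGB 2 and 474 to 1441.2 CPM in the rest, and Vprbp, a substrate receptor of a cullin ligase, 99.4 CPM and 49.8 to 79.1 CPM. Close to Trim63 were Hook2, Psmd7, Vps54 and Anapc16, at 0.984 to 0.985, and at 0.913 to 0.945 without RYGB 2. Psmd7, a proteasome lid subunit, was at 481.9 CPM in RYGB 2 and 200.1 to 289.6 CPM in the other libraries. All libraries share the group difference and RYGB 2, so these values describe likeness only.

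Other cell types in the muscle samples moved with some of these values, and their part in them was not tested. All 7 Schwann cell markers were listed, with none at 0. Their sum was 160.7 to 555.6 CPM in RYGB and 82.2 to 127.2 CPM in sham libraries, with no overlap. None passed the test, and all 7 were at an unadjusted p below 0.05 in limma, beside 812 of all 11594 genes. The fibroblast list of 7 genes summed to 176.7 CPM in RYGB 2, 885.9 to 2235 CPM in the other RYGB libraries and 409 to 738.3 CPM in sham libraries, and without RYGB 2 its member Col3a1 rose (469.5 ± 72.3 CPM in RYGB and 161 ± 52.99 CPM in sham muscles, 1.58, adjusted p = 0.0468). The sum of 10 adipocyte markers overlapped, at 3192 to 7654 CPM in RYGB and 3371 to 5992 CPM in sham libraries, although Lep, leptin, averaged 0.675 ± 0.499 CPM in RYGB and 15.4 ± 9.65 CPM in sham muscles (adjusted p = 0.0566; 0.0468 without RYGB 2) and was at 0 in RYGB 2, the only listed marker at 0 in any muscle library. Leukocyte markers, 6 of 9 listed, summed to 138.2 to 328.6 CPM in RYGB and 70.4 to 185.1 CPM in sham muscles. Satellite cell markers (7 of 7 listed) summed to 2238 to 3942 CPM in RYGB and 2062 to 2425 CPM in sham muscles. Endothelial markers (8 of 8) summed to 373.5 to 757.9 and 354.4 to 653.2 CPM. Smooth muscle markers (5 of 7) summed to 2222 to 3566 and 1741 to 2309 CPM. The satellite cell and smooth muscle lists share the gene Des, so their sums are not independent.

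The same lists were read for RYGB 2. It held the highest value of the 8 muscle libraries in 16 of 17 glucocorticoid response genes, beside the 23.6% of all genes, and in 9 of them by at least 2-fold on the CPM + 1 scale, beside 1.42% of all genes. Fkbp5, a receptor co-chaperone and a standard glucocorticoid marker, was at 263.4 CPM in RYGB 2 and 26.9 to 85.8 CPM in the other 7; Tsc22d3, which encodes GILZ, at 1512.4 CPM and 232.7 to 610.5 CPM; the metallothionein gene Mt2 at 80.5 CPM and 1.6 to 8.6 CPM; and Glul, glutamine synthetase, at 1267.1 CPM and 169.3 to 460.7 CPM. Of 22 FOXO factors and targets RYGB 2 was highest in 13 and at least 2-fold highest in 6, among them Foxo1 (611.6 CPM, 39.3 to 124.3 CPM elsewhere) and Eif4ebp1 (174.2 CPM, 17 to 43.8 CPM elsewhere). RYGB 2 was also highest in 13 of 28 autophagy genes (sum 6616 CPM, 3773 to 4985 CPM elsewhere), 13 of 27 genes of insulin and IGF1 signalling and 7 of 13 inflammatory genes (sum 1130.0 CPM, 451.8 to 609.5 CPM elsewhere), and at least 2-fold highest in 3 of 12 p53 targets. It was highest in 9 of 31 other ligases and in none of them by 2-fold, in 10 of 35 proteasome genes, and in 0 of 27 fibre type genes.

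The same animal, coded R2, gave a library of each tissue. Its glucocorticoid response genes summed to 5588 CPM in muscle, 11200.0 CPM in WAT and 8300 CPM in liver. The other libraries of each tissue lay below, at 1295 to 2088, 2968 to 4615 and 2661 to 5199 CPM. A few abundant genes carried much of these sums. In R2 they were Glul (4394.6 CPM) and Mt1 (2348.7 CPM) in WAT, and Tat (3423.7 CPM) and Errfi1 (1550.8 CPM) in liver. Its WAT library held the highest value in 11 of 18 of these genes, beside 14.7% of all WAT genes, and its liver library in 10 of 16, beside 7.09% of all liver genes. The share over all genes was not computed for duodenum, jejunum and ileum. There R2 was highest in 5 of 15, 4 of 17 and 6 of 18 of the glucocorticoid response genes. Some were lowest in R2: Nr3c1, the receptor gene, in WAT (90.3 CPM, 166.5 to 382.2 CPM elsewhere) and Glul in liver (656.8 CPM, 791.1 to 2761.8 CPM elsewhere). Fkbp5 was highest in R2 in all 6 tissues. It was at 265 CPM in WAT, 90.3 CPM in liver, 392.5 CPM in duodenum, 241.3 CPM in jejunum and 193 CPM in ileum. The highest other library of these tissues held 136.7, 38.1, 42, 65.6 and 32.6 CPM. Of the members, 7 of 8 were highest in R2 in muscle, Nos1 being the exception, and most were not in the other tissues. In WAT R2 had the highest Klf15 (117 CPM, 29.6 to 73.7 CPM in the other RYGB libraries) but the lowest Fbxo32 (27.9 CPM), and in liver its Fbxo32 was 10.7 CPM among 9.9 to 19.7 CPM.

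**Figure D3:**
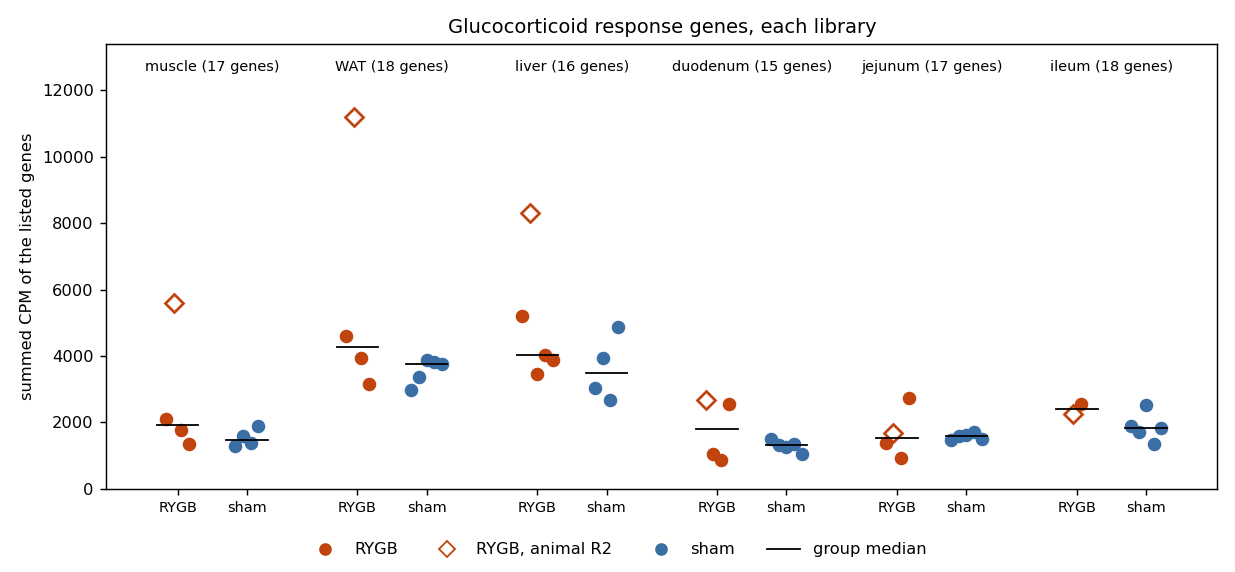
Summed CPM of the listed glucocorticoid response genes in each library of the 6 tissues, RYGB left of sham, with bars at the group medians; the open diamond is animal R2. R2 is the highest library in muscle, WAT, liver and duodenum, at 5588, 11200.0, 8300 and 2665 CPM, and not in jejunum or ileum. Abundant genes weigh most in such a sum.

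White adipose tissue was the tissue where most of these genes changed: of the 6 listed members, 4 fell and 1 rose after RYGB (n = 4 RYGB and 5 sham libraries). The background there was high, with 40.6% of 12690 genes called. RYGB lay below all sham libraries for 3 members, beside 22.0% of all genes, and above for 1, beside 11.7%. The 5 called were Fbxo30, Foxo3, Fbxo32, Gadd45a and Klf15; Trim63 and Mstn were below the filter.

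Fbxo30 showed the tightest groups, with 22.8, 24.1, 24.7 and 22.2 CPM in RYGB against 51.4, 43.3, 41.9, 43.3 and 41.8 CPM in sham libraries. It was 1.85-fold lower with no overlap (−0.89, interval −1.15 to −0.63, adjusted p = 0.000439). Foxo3 held 48.7, 56.5, 69 and 51.8 CPM in RYGB and 85.2, 98.8, 73, 117.1 and 133.5 CPM in sham libraries, again without overlap but with RYGB 3 close to sham 3 (−0.81, interval −1.23 to −0.40, adjusted p = 0.00642). Gadd45a, at low levels, held 2.5, 2.8, 4.3 and 6 CPM in RYGB and 7.5, 9.8, 8.8, 8.2 and 10.8 CPM in sham libraries (−1.08, interval −1.58 to −0.57, adjusted p = 0.0044).

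Fbxo32 fell in WAT as well. Its libraries held 30.4, 27.9, 45.2 and 29.6 CPM in RYGB and 40.5, 47.8, 53.4, 50.6 and 62.1 CPM in sham mice, RYGB 3 within the sham range. The fold change was −0.61 (interval −0.99 to −0.23, adjusted p = 0.0169), and with median-of-ratios scaling it was −0.43 with an adjusted p of 0.0538. That scaling gave a median of 0.00465 over all WAT genes, where the values as deposited gave −0.16, with 2681 genes called higher and 2593 lower, against 1812 and 3341 as deposited; the other 4 members were called under both. Klf15 rose: RYGB libraries held 73.7, 117, 45.3 and 29.6 CPM and sham libraries 16.7, 18.1, 20.6, 26.7 and 26.8 CPM, without overlap (1.41, interval 0.67 to 2.15, adjusted p = 0.00783). It remained called without RYGB 2, the library of animal R2, and over 9 fits with a library left out its fold change was 1.08 to 1.73. Nos1 was near the filter at 1.0 ± 0.316 CPM in RYGB and 1.4 ± 0.374 CPM in sham mice (SD, n = 4 and 5; adjusted p = 0.313).

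**Figure D4:**
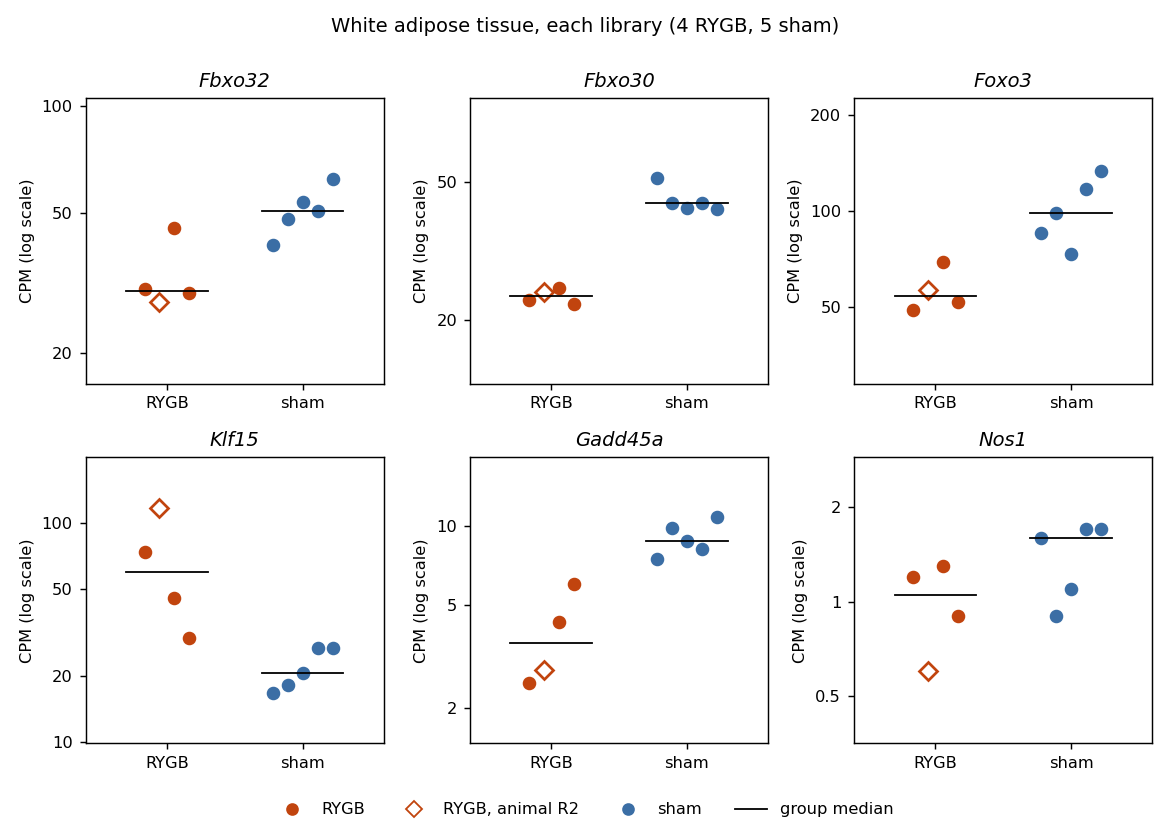
CPM of the 6 listed members in each WAT library on a log axis, RYGB left and sham right, bars at the medians, the open diamond being animal R2. Fbxo30, Foxo3 and Gadd45a are lower and Klf15 higher in RYGB with no overlap, and R2 is the highest library for Klf15 alone.

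Neighbours of these members in WAT were read by list. Of all 12690 genes there 3341 fell and 1812 rose (2593 and 2681 with median-of-ratios scaling). Of 35 proteasome genes 25 rose and none fell (median 0.66, beside −0.16 for all genes; 26 and 0 with median-of-ratios scaling), for example Psma1, a core subunit, at 295 ± 88.6 CPM in RYGB and 131 ± 5.93 CPM in sham mice (1.12, adjusted p = 0.00122), and Psme2, an activator subunit (1.32, adjusted p = 0.000644). Of 24 genes of amino acid catabolism, 15 rose and 1 fell (median 0.81, and 17 and 1 with scaling). Bcat2, the branched-chain aminotransferase, rose to 269 ± 166 CPM in RYGB from 46.2 ± 14.8 CPM in sham mice (2.38, adjusted p = 0.000759). Whether KLF15 acts on the genes of this list was not tested. Of 24 other ligases and partners 11 fell and 3 rose, and 4 and 4 did with scaling; Nedd4, a HECT ligase gene, stood at 1100.0 ± 451.9 CPM in RYGB and 2171 ± 99.7 CPM in sham mice (−1.07, adjusted p = 0.00589). Of 21 FOXO factors and targets 9 fell and 4 rose (5 and 4 scaled). With scaling, the share called was below that of all genes for the ligases and near it for the FOXO list. Foxo1 fell beside Foxo3 (105 ± 3.48 CPM in RYGB and 179 ± 19.5 CPM in sham mice, −0.76, adjusted p = 0.00102).

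Mstn itself was not listed in WAT. Of the myostatin and activin list, which also holds TGF-beta and BMP genes, 39 genes were listed there. Among these, 30 fell and none rose (median −0.89). Of all 12690 genes 3341 fell and 1812 rose. With scaling 27 genes of the myostatin and activin list fell and 1 rose. Fstl3, a secreted myostatin inhibitor, fell to 0.925 ± 0.403 CPM in RYGB, against 27.6 ± 13.4 CPM in sham mice (−3.79, adjusted p = 6.63e-05). The BMP receptor gene Bmpr2 fell to 8.08 ± 6.02 CPM, against 34.7 ± 10.3 CPM (−2.11, adjusted p = 0.00134). Cell type markers moved in WAT as well. The 10 adipocyte markers summed to 48760.0 to 96030.0 CPM in RYGB and 33890.0 to 47930.0 CPM in sham libraries with 3 rising and 2 falling, the 7 fibroblast markers to 839.1 to 4961 and 1981 to 3375 CPM with 3 falling, and the 5 listed smooth muscle markers to 119.6 to 230.3 and 437.4 to 1208 CPM with 1 rising and 2 falling. Their part in the values of the members was not tested.

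Whether the RYGB effect differed between muscle and WAT was tested per animal, in the 4 RYGB and 4 sham mice with a library of each. Limma called 0 of the 6 members listed for both, beside 12.9% of 11092 genes. At an unadjusted p below 0.05 in limma were 5 of the 6, beside 3473 of the 11092 genes. The effect in muscle minus that in WAT was −1.19 for Klf15 (interval −2.003 to −0.38, adjusted p = 0.0551), 1.24 for Fbxo30 (adjusted p = 0.0913), 1.18 for Foxo3 (adjusted p = 0.127), 1.95 for Gadd45a (adjusted p = 0.0809), −0.95 for Nos1 (adjusted p = 0.117) and −0.41 for Fbxo32 (adjusted p = 0.686). Without animal R2 the difference for Klf15 passed (−1.43, adjusted p = 0.0386), and that for Fbxo32 was −1.16 (adjusted p = 0.0574). Without animal R3, the differences for Fbxo30, Foxo3 and Gadd45a passed (1.51, 1.57 and 2.37, adjusted p = 0.0255, 0.0184 and 0.0266). Without R2 they were smaller than with all animals and did not pass (0.72, 0.62 and 1.15, adjusted p = 0.131, 0.22 and 0.121). Between muscle and liver (4 RYGB and 3 sham animals) 0 of 5 members passed, beside 1.86% of 9240 genes. At an unadjusted p below 0.05 in limma was 1 of the 5, beside 2904 of the 9240 genes. That member, Fbxo30, differed by 1.17 (interval 0.13 to 2.22, adjusted p = 0.127), and passed without animal R1 (1.40, adjusted p = 0.0479).

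In liver, limma called 0 of the 5 listed members, beside 4.63% of 10285 genes. At an unadjusted p below 0.05 were 0 of the 5, beside 3474 of the 10285 genes. Fbxo30 held 50.3, 67.5, 35, 28.3 and 83.2 CPM in RYGB and 88.5, 53.5, 95.2 and 74.9 CPM in sham livers, where 3 RYGB values lay below the lowest sham value (−0.63, interval −1.39 to 0.13, adjusted p = 0.214). Foxo3 went the other way, at 50.5, 56, 64, 63.3 and 82.9 CPM in RYGB and 57.1, 56.1, 42.5 and 26.9 CPM in sham livers (0.50, adjusted p = 0.237). Klf15, which in liver controls the use of amino acids in fasting, ranged from 13.8 to 44.7 CPM in RYGB and from 15.8 to 58.2 CPM in sham livers (−0.53, adjusted p = 0.405). Fbxo32 was at 13.9 ± 2.5 and 13.4 ± 4.33 CPM and Gadd45a at 1.54 ± 0.992 and 1.85 ± 0.64 CPM in RYGB and sham livers (SD, n = 5 and 4).

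**Figure D5:**
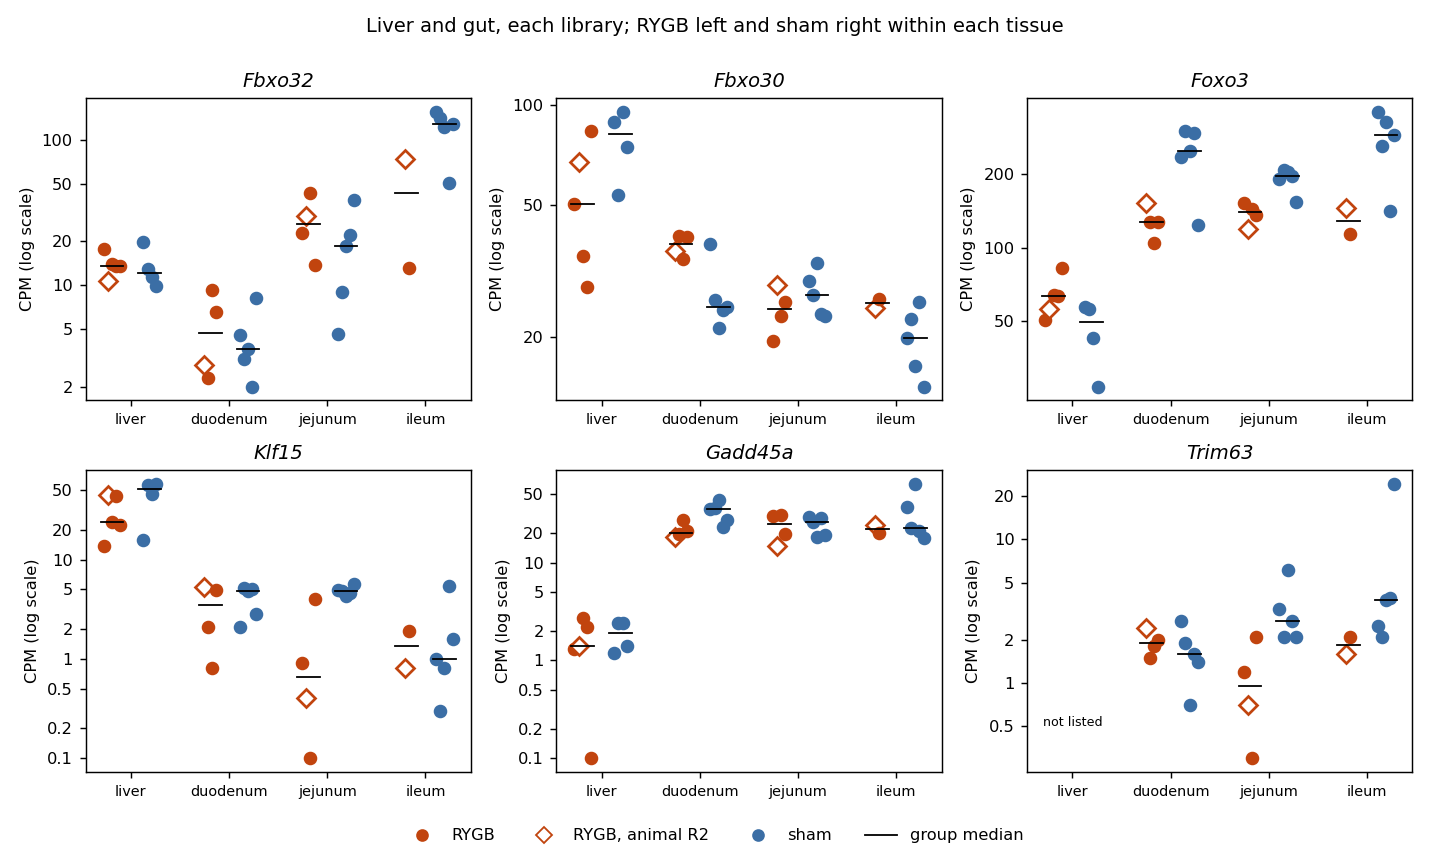
CPM of 6 members in each library of liver, duodenum, jejunum and ileum on a log axis, RYGB left and sham right within each tissue, bars at the medians and the open diamond for animal R2. Foxo3 lies lower in RYGB in the 3 gut segments, with no overlap in jejunum, and Klf15 in jejunum is at 0.1 to 4 CPM in RYGB and 4.3 to 5.7 CPM in sham.

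In the gut, Foxo3 had the highest level per exon length of the members (25.2, 22.1 and 31.0 CPM per kilobase on average in duodenum, jejunum and ileum) and lay lower in RYGB in each of the 3 segments, passing the test in none of them with all libraries and surgery as the model's only term. In jejunum it held 153.3, 119.6, 144.3 and 136.3 CPM in RYGB and 191.8, 207.7, 204.5, 196.2 and 153.5 CPM in sham mice, no RYGB value reaching the lowest sham value (−0.46, interval −0.78 to −0.14, adjusted p = 0.0596; 0.0436 without sham 5). In duodenum the values were 151.9, 127.7, 104.2 and 127.7 CPM in RYGB and 236.9, 300.7, 250.6, 296.1 and 123.7 CPM in sham mice (−0.86, adjusted p = 0.0937). Sham 5 alone lay among the RYGB libraries, and without it Foxo3 fell (−1.08, adjusted p = 0.0136). In ileum it held 144.9 and 113.6 CPM in RYGB and 361.2, 262.8, 327.3, 141.1 and 291.5 CPM in sham mice (−1.03, unadjusted p = 0.021, adjusted p = 1.0).

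Klf15 was the single member called in the gut: of 6 listed in jejunum, 1 fell, beside 12.6% of 11021 genes called. It read 0.9, 0.4, 0.1 and 4 CPM in RYGB and 4.9, 4.8, 4.3, 4.6 and 5.7 CPM in sham jejunum, low values with 1 RYGB library next to the sham group (−1.58, interval −2.41 to −0.74, adjusted p = 0.0243). Klf15 and Foxo3 had no overlap between groups in jejunum, a pattern of 6.75% of all genes there. The call on Klf15 did not survive the loss of RYGB 1 (adjusted p = 0.0603) or RYGB 3 (0.0657), nor that of sham 1, sham 2, sham 3 or sham 4 (0.0583, 0.0597, 0.0513 and 0.0563). Trim63, near the filter at 1.2, 0.7, 0.3 and 2.1 CPM in RYGB and 3.3, 2.1, 6.1, 2.7 and 2.1 CPM in sham jejunum, had a fold change of −1.04 (adjusted p = 0.0579; 0.0203 without RYGB 4).

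Limma called 0 of 6 members in duodenum, beside 0.348% of 10930 genes. At an unadjusted p below 0.05 were 3 of the 6, beside 2486 of the 10930 genes. These 3 were Foxo3, Gadd45a (21.6 ± 4.0 CPM in RYGB and 33.1 ± 7.89 CPM in sham mice, −0.58, adjusted p = 0.151) and Fbxo30 (37.8 ± 2.98 and 26.8 ± 6.57 CPM in RYGB and sham mice, 0.50, adjusted p = 0.163, SD, n = 4 and 5). Pancreatic acinar transcripts, 9 of 10 listed, moved with some of these libraries, summing to 15.7 to 11410.0 CPM in RYGB and 47 to 70050.0 CPM in sham duodenum, and their part was not tested. It called 0 of 6 members in ileum too, beside 0% of 12041 genes (438 at an unadjusted p below 0.05, among them 2 members), with 2 RYGB libraries. There Fbxo32 held 73.3 and 13.2 CPM in RYGB and 155.6, 142.3, 121.9, 50.2 and 128.2 CPM in sham mice (−1.80, unadjusted p = 0.0216, adjusted p = 1.0). Sham 4 was the lowest sham library for both Fbxo32 and Foxo3, and every other sham library lay above both RYGB libraries for these genes. Sham 4 also stood apart across genes, correlating with the other sham ileum libraries at 0.798 to 0.821. The highest correlation of each of these with a library of its group was 0.934 to 0.99. Skeletal muscle fibre markers summed to 18.1 to 44.4 CPM in RYGB and 41.8 to 857.4 CPM in sham ileum, highest in sham 5, which also held the highest Trim63 (24.5 CPM, 1.6 to 3.9 CPM in the other 6 libraries).

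Across tissues the members separated by where they were listed. Trim63 was at 450.6 to 9038.3 CPM in muscle and at most 24.5 CPM in any gut library, Nos1 at 48 to 160.9 CPM in muscle and 0.6 to 1.7 CPM in WAT, and Mstn was listed in muscle alone. Fbxo32 was highest in muscle, with a median of 2551 CPM over 8 libraries and no overlap with the next tissue. It then ran down from ileum (121.9 CPM) over WAT (45.2 CPM), jejunum (22.1 CPM) and liver (13.5 CPM), neighbours whose ranges overlap, to duodenum (3.6 CPM), which did not overlap with liver. Klf15 was highest in liver, muscle and WAT (medians 43.5, 27.8 and 26.8 CPM, overlapping), without overlap with the 3 gut segments at 4.8, 4.3 and 1.0 CPM. Gadd45a ran the other way, from 27.3 CPM in duodenum over jejunum, ileum and muscle with overlapping ranges to 7.5 CPM in WAT and 1.4 CPM in liver. Fbxo30 and Foxo3 were spread evenly, with medians of 22.6 to 67.5 CPM and 56.1 to 262.8 CPM and overlap between all neighbours.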

How the data were processed

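Per the labels' protocols, an RNeasy kit gave the RNA and PrepX the libraries. The authors deposited 1 table of CPM per tissue, rounded to 1 decimal, counted with HTSeq on GRCm38 per the submitters' processing notes; the sources used here name no version, aligner, annotation or strand setting. Every listed gene reaches 1 CPM in a number of libraries that equals the size of the smaller group. Repeated lines (374 in WAT and 339 in ileum) were dropped. Per tissue, limma 3.58.1 in R 4.3.3 (eBayes with trend and robust options, two-sided) was fitted to log2(CPM + 1) with a single surgery term, and between tissues to the difference per animal; the spread behind each p-value is that between these mice. Simulated data with known changes were used to test the fits. Coordinates and exon lengths come from GENCODE M21. Alternatives were median-of-ratios scaling, a pseudocount of 0.1 CPM, a mean of at least 5 CPM, the replicate number as a block and each library left out; the settings combined with leaving out RYGB 2 were added after seeing the data. The members and lists were chosen with earlier results of these data known. The text names all members. From each list it names genes from the up to 4 with the smallest adjusted p, the up to 2 with the highest mean CPM or those past the threshold in muscle, or past the threshold in WAT; genes given for animal R2 were chosen after their values were seen. No libraries held identical values. Python 3.11.15 prepared tables and figures. Some genes that this rule or the likeness to Trim63 would name are not reported here.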

Additional observations from a re-analysis of the deposited data

Results flagged for a closer look

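Among 68 groups of member values, 9 held a library far from the rest of its group by Dixon's criterion on the log2 scale. Chance alone meets this criterion in about 1 in 20 groups. In muscle these were RYGB 2 for Fbxo32 (5779.7 CPM), Trim63 (9038.3 CPM) and Fbxo30 (246.5 CPM), each above all other libraries, and sham 4 for Fbxo32 (3458.2 CPM), the highest sham value. RYGB 2 was the highest muscle library for Foxo3, Klf15, Mstn and Gadd45a as well, but did not meet the criterion on that scale. In WAT sham 1 was far above the other sham libraries for Fbxo30 (51.4 CPM). For Foxo3, sham 5 was far below the other sham libraries in duodenum (123.7 CPM) and in jejunum (153.5 CPM). In ileum sham 4 was far below for Fbxo32 (50.2 CPM) and sham 5 far above for Trim63 (24.5 CPM). None of the 11 differences between tissues passed the test with all animals.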

How the results depend on the processing

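Of 660 recomputed values of the members, 601 kept their direction and side of the threshold, 13 lost the call, 13 gained it and 33 changed sign. Leaving out 1 library gave fold changes in muscle of −1.11 to 0.33 for Trim63, −0.20 to 0.57 for Fbxo30, −0.30 to 0.55 for Foxo3, −0.36 to 0.46 for Klf15 and −0.27 to 0.47 for Mstn. With RYGB 2 already left out it gave −0.035 to 0.38 for Gadd45a and −0.55 to 0.081 for Mstn. It gave −0.051 to 0.26 for Fbxo32 and −0.41 to 0.025 for Gadd45a in liver, −0.11 to 0.43 for Fbxo32 and −0.59 to 0.016 for Klf15 in duodenum, −0.20 to 0.13 for Gadd45a in jejunum and −0.41 to 0.29 for Klf15 in ileum. For muscle minus liver it gave −0.89 to 0.029 for Foxo3, −0.011 to 0.81 for Klf15 and −0.22 to 1.05 for Gadd45a. Median-of-ratios scaling gave −0.13 for liver Fbxo32, 0.076 for ileum Klf15 and 0.017 for Foxo3 in muscle minus liver, and a pseudocount of 0.1 gave 0.046 for ileum Klf15.

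Counts of genes called with 1 library or animal left out were 0 to 24 in muscle, 0 to 36 in muscle without RYGB 2, 3936 to 6151 in WAT, 3 to 2253 in liver, 1 to 982 in duodenum, 484 to 2258 in jejunum, 0 to 46 in ileum, 530 to 3641 for muscle minus WAT and 3 to 2461 for muscle minus liver. Scaling gave 992 in liver and 763 for muscle minus liver, where the share of liver calls that were higher was 51.7%, against 43.9% as deposited; in duodenum it was 26% against 36.8%. A pseudocount of 0.1 gave 1 in muscle, 14 in muscle without RYGB 2 and 11 for muscle minus liver, and a mean of at least 5 CPM gave 9 in muscle without RYGB 2 and 105 in duodenum. The cause was not tested.

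Replicate numbers name different animals in RYGB and sham, and the correlation of same-numbered libraries' deviations ran from −0.203 to 0.0989 in muscle, −0.0969 to 0.128 in WAT, −0.352 to 0.102 in liver, −0.317 to 0.556 in duodenum, −0.247 to 0.087 in jejunum and −0.253 to 0.376 in ileum; in no tissue were all pairs above 0.1, so the numbers were not taken as pairs. With the replicate number as a block, 2 genes were called in muscle, 7 in liver, 441 in duodenum, 474 in jejunum and 597 in ileum, and the values were 0.025 for liver Gadd45a and 0.50 for ileum Klf15. Under that block limma called Foxo3 in duodenum (−1.08, adjusted p = 0.0298) and ileum (−1.26, adjusted p = 0.0116). It no longer called Klf15 in jejunum (−1.53, adjusted p = 0.0672). A library whose number is absent from the other group does not enter the surgery effect of this fit. Shared numbers were 2 in ileum, where sham 4 with its low Foxo3 did not enter. They were 4 in duodenum, where sham 5 did not enter. Without the animal as a block, muscle minus liver gave 25 genes. Leaving out an ileum RYGB library leaves 1, assumed to vary like the others. The CPM tables hold no read totals, so counting error at low CPM is unknown.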
